A study of Rattus norvegicus with 9 samples.

Results

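The subunit genes of respiratory complexes II to V were described across the femur libraries of control, ovariectomized and Cistanche-treated rats. Members were the genes whose deposited symbol names an Sdh subunit, a Uqcr subunit, cytochrome c1, a cytochrome c oxidase subunit, an ATP synthase subunit or a mitochondrially encoded subunit of complexes III to V. For a symbol with several rows the row of highest mean level was kept, and a mean of at least 1 FPKM (fragment counts scaled for gene length and library depth) over the 9 libraries was required. Of 32623 rows, 57 matched by name, with 55 symbols, and 51 symbols were members, 45 of them nuclear and 6 mitochondrial. Complex II held 4 nuclear members. Complex III held 9 nuclear members and 1 mitochondrial member, complex IV 15 and 3, and complex V 17 and 2.

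The respiratory chain passes electrons from food to oxygen across the inner mitochondrial membrane, and the proton gradient this builds drives ATP synthesis. Complex II oxidises succinate, complex III moves electrons from ubiquinol to cytochrome c, complex IV (cytochrome c oxidase) hands them to oxygen, and complex V (ATP synthase) makes ATP. Complexes III, IV and V are built from subunits of both genomes: the catalytic core of complex IV and the membrane channel of complex V include subunits read from mitochondrial DNA, whereas complex II is wholly nuclear. Several complex IV subunits exist as paired isoforms, of which the heart and skeletal muscle forms, Cox6a2, Cox7a1 and Cox8b, replace the widely made Cox6a1, Cox7a2 and Cox8a in striated muscle.

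The libraries held poly(A) RNA from the femora of wild-type Sprague-Dawley rats. There were 3 control libraries, 3 from ovariectomized rats, which lack ovarian oestrogen, and 3 from rats given Desertliving Cistanche, a herb that the series title places in ovariectomized rats. The labels give neither the age of the rats nor the dose and duration of the herb. They also do not say whether libraries of a group are separate animals, so the p-values describe only the spread among these libraries, which may be technical. Each library held 54992823 to 66531156 counts, and 13886 rows reached a mean of 1 FPKM and were tested. A femur sample mixes bone, marrow and attached tissue. The bone markers Col1a1 (173.6 to 1057 FPKM) and Bglap (126.2 to 869.8 FPKM) were present in every library, beside skeletal muscle markers whose summed level ran from 296.7 to 4704 FPKM. Haemoglobin genes took 6.89% to 16.2% of the counts. In such bulk samples, fewer cells of a type and less RNA per cell cannot be told apart.

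Mitochondrial members stood far above nuclear members in FPKM, a level per transcript length. Mt-co1, the catalytic subunit of complex IV, had a mean level of 7847 FPKM over the 9 libraries, and Mt-co3, another core subunit, 7676 FPKM. Mt-atp8 and Mt-co2 followed at 5051 and 4771 FPKM, and Mt-cyb, the cytochrome b of complex III, reached 3271 FPKM. The lowest mitochondrial member, Mt-atp6, which forms part of the proton channel of ATP synthase, had 2256 FPKM. The highest nuclear member was Atp5f1b, the catalytic beta subunit of ATP synthase, at 485.04 FPKM, so the ranges of the mitochondrial and nuclear members did not meet. Mt-atp8 and Mt-atp6 overlap on the mitochondrial chromosome (MT 7758 to 7961 and MT 7919 to 8599, in the deposited coordinates, of a build not given in the sources used here), and reads from the overlap cannot be told apart.

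**Figure D1:**
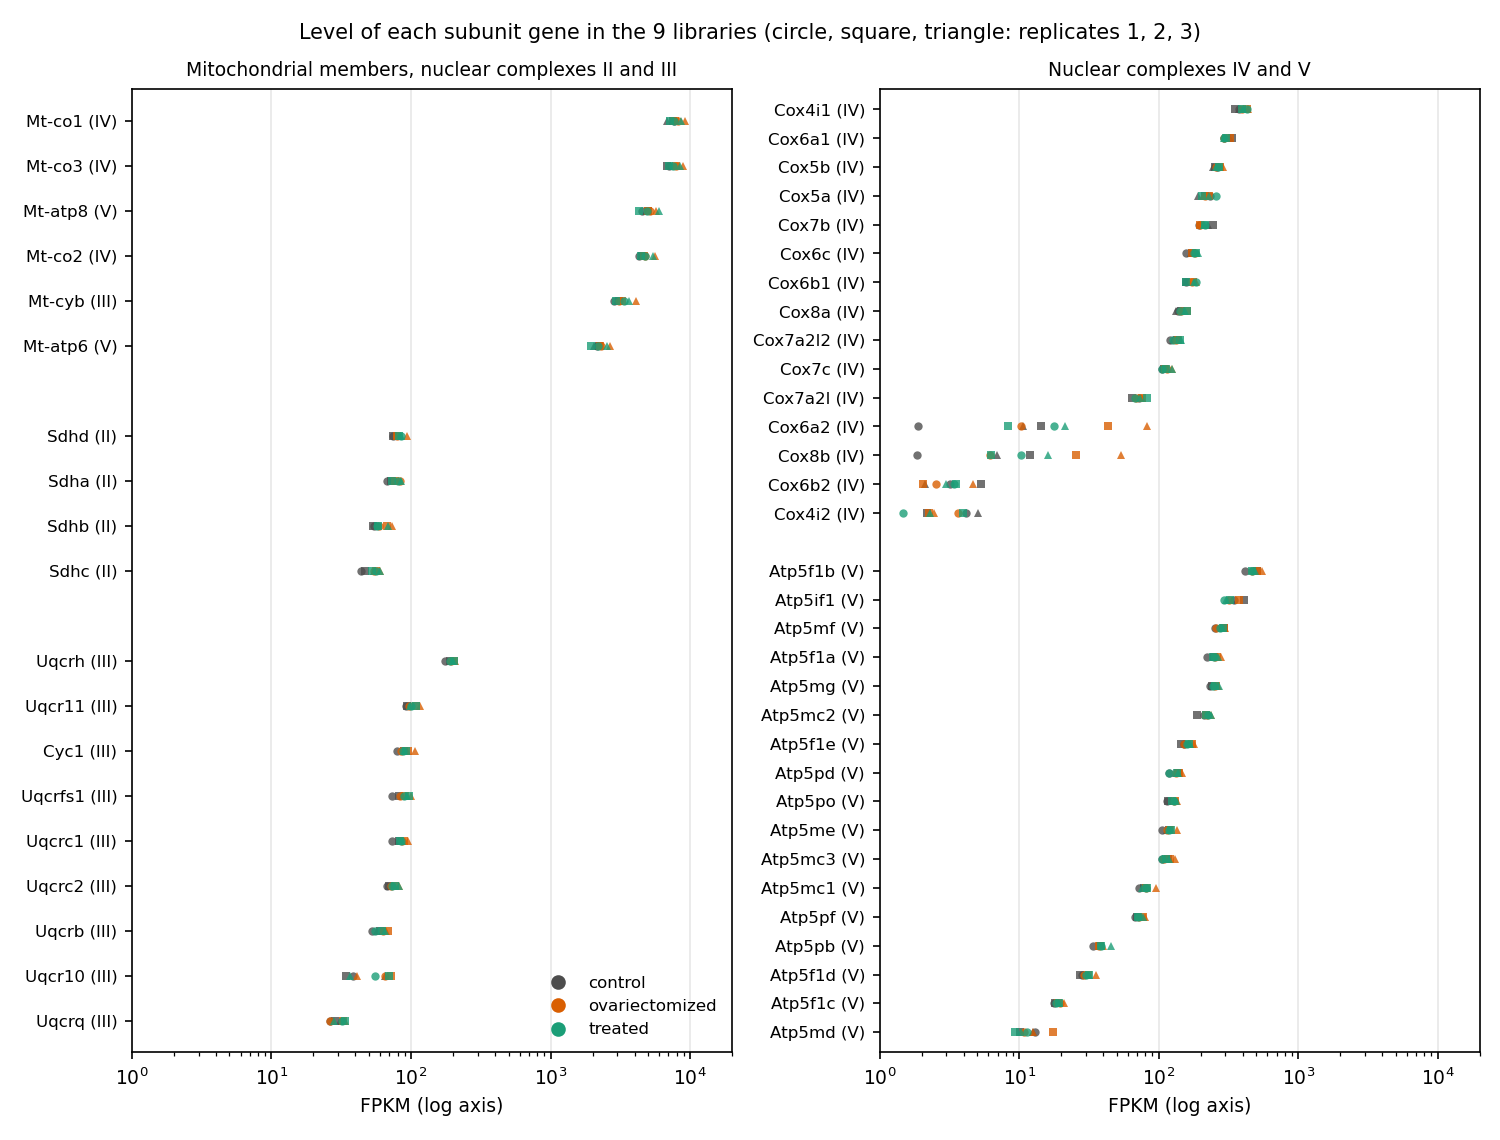
Deposited FPKM of the 51 members on a log axis, with 1 point per library, coloured by group; the complex stands in brackets after each gene. The 6 mitochondrial members lie above all nuclear members, most nuclear members form tight clusters of points, and Cox6a2 and Cox8b spread 43.4-fold and 29.0-fold.

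Complex II, the enzyme shared by the chain and the citric acid cycle, had the narrowest range of levels. Its membrane anchor Sdhd had a mean of 80.9 FPKM, the flavoprotein Sdha 77.8 FPKM, the iron-sulfur subunit Sdhb 60.8 FPKM and the second anchor Sdhc 53.5 FPKM. In complex III the hinge protein Uqcrh was highest at 195.2 FPKM, and the small subunit Uqcrq was lowest at 30.2 FPKM. The core proteins Uqcrc1 and Uqcrc2, the Rieske protein Uqcrfs1 and the cytochrome Cyc1 lay between 74.2 and 90.9 FPKM. In complex IV Cox4i1, a subunit that contacts the catalytic core, was highest at 398.2 FPKM, followed by Cox6a1 at 308.1 FPKM. In complex V the beta subunit was followed by Atp5if1, the inhibitor that stops ATP synthase from running backwards, at 335.7 FPKM. The 3 genes that encode the same mature c subunit of the rotor differed in level: Atp5mc2 had 219.97 FPKM, Atp5mc3 115.6 FPKM and Atp5mc1 80.99 FPKM.

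Some low places in this order rest on how rows were defined. The row of Atp5f1c, the gamma subunit of the central stalk, had 81222 counts in all but a level of 19.1 FPKM, because its counts and FPKM imply a length of 7.67 kb. The row named Atp5md (12.0 FPKM), a small membrane subunit, shares 10 neighbouring genes with the pseudogene Atp5mk-ps2 in RefSeq's GRCr8 annotation. The Uqcrb row of highest level (chromosome 1, 60.9 FPKM) shares only 2 with the pseudogene Uqcrb-ps1, and a second Uqcrb row on chromosome 7 had 23.3 FPKM. The row named Cox7a2l2 (133.4 FPKM) shares 4 neighbours with RefSeq's Cox7a2, the widely made isoform of that subunit. Atp5pb, a peripheral stalk subunit, had 38.4 FPKM beside 40.9 FPKM for LOC100911417, a row described as ATP synthase subunit b-like, and how reads were split between them is not known.

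Most nuclear members varied little between the 9 libraries. On the scale of depth-corrected counts (CPM) with TMM factors, edgeR's correction for library composition, the coefficient of variation over all 9 libraries had a median of 6.41% among the 45 nuclear members and 9.18% among the 6 mitochondrial members. The median over all genes tested was 13.2%, and 9.26% among the 7022 genes at or above the 10th percentile of the members' level. It was under 10% in 38 of the 45 nuclear members (84.4%), against 35.0% of all genes tested and 54.8% of those 7022 genes. Under 20% the shares were alike, at 86.7% of nuclear members and 86.5% of the 7022 genes. The steadiest member was Atp5mg, a membrane subunit of ATP synthase, at 2.97%, followed by the peripheral stalk subunit Atp5po at 3.64%.

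The 7 nuclear members above 10% were Cox6a2 (106.1%), Cox8b (102.4%), Cox4i2 (38.8%), Cox6b2 (35.4%), Uqcr10 (28.1%), Atp5md (21.0%) and Atp5if1 (14.1%). The first 4 are all tissue-type isoforms of complex IV. Uqcr10, a small subunit of complex III, had 38.5, 34.2 and 65.3 FPKM in control replicates 1 to 3, 64.9, 72.0 and 41.2 FPKM in ovariectomized replicates and 55.4, 69.1 and 36.6 FPKM in treated replicates. Its levels thus fell into a lower set of 4 libraries (34.2 to 41.2 FPKM) and a higher set of 5 (55.4 to 72.0 FPKM), and each set held libraries of all 3 groups. The other nuclear complex III members showed no such gap, with coefficients of variation of 3.94% (Uqcrh) to 9.16% (Uqcrq).

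The muscle-type isoforms of complex IV had the widest range of all members. Cox6a2 had 1.89, 14.4 and 10.6 FPKM in the control libraries, 10.4, 43.5 and 81.8 FPKM in the ovariectomized libraries and 17.7, 8.29 and 21.3 FPKM in the treated libraries. Cox8b had 1.86, 11.9 and 6.93 FPKM, 6.14, 25.5 and 53.9 FPKM, and 10.4, 6.27 and 16.2 FPKM in the same order. In both genes control replicate 1 was lowest, ovariectomized replicates 3 and 2 were highest, and the remaining ovariectomized library lay within the range of the controls, so the groups overlapped. The highest library exceeded the lowest 43.4-fold for Cox6a2 and 29.0-fold for Cox8b. Cox6a2 ran from 0.637% to 27.2% of the level of its widely made partner Cox6a1, and Cox8b from 1.35% to 37.1% of that of Cox8a.

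These levels went along with the whole list of skeletal muscle markers, of which 15 of 20 symbols had a row and all 15 passed the floor in level. The summed marker level was 296.7, 772.9 and 953.2 FPKM in the control libraries, 964.5, 2455 and 4704 FPKM in the ovariectomized libraries and 1118, 723.4 and 1485 FPKM in the treated libraries. No marker was at 0 in any library, and the actin Acta1 ran from 50.8 to 1515 FPKM. Control replicate 1 was lowest and ovariectomized replicates 3 and 2 highest here too. Expressed as a share of the summed markers of the same library, Cox6a2 ran from 0.635% to 1.86% and Cox8b from 0.626% to 1.55%, ranges of 2.92-fold and 2.47-fold. The ratio of Cox6a2 to Cox8b ran from 1.02 to 1.71. Cox8b is also made in brown fat. Of 6 brown adipocyte markers, Ucp1 and Elovl3 had 0 counts in all 9 libraries, and Dio2, Ppargc1a and Ebf2 had means of 0.482, 0.252 and 0.128 FPKM. Cidea, which white fat can also make, had 8.64, 6.43 and 1.64 FPKM in control, 14.6, 12.5 and 11.2 FPKM in ovariectomized and 12.6, 7.73 and 15.9 FPKM in treated libraries, with all ovariectomized libraries above all controls (1.13, SE 0.54, edgeR adjusted p = 0.974). Its part in the level of Cox8b was not tested.

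**Figure D2:**
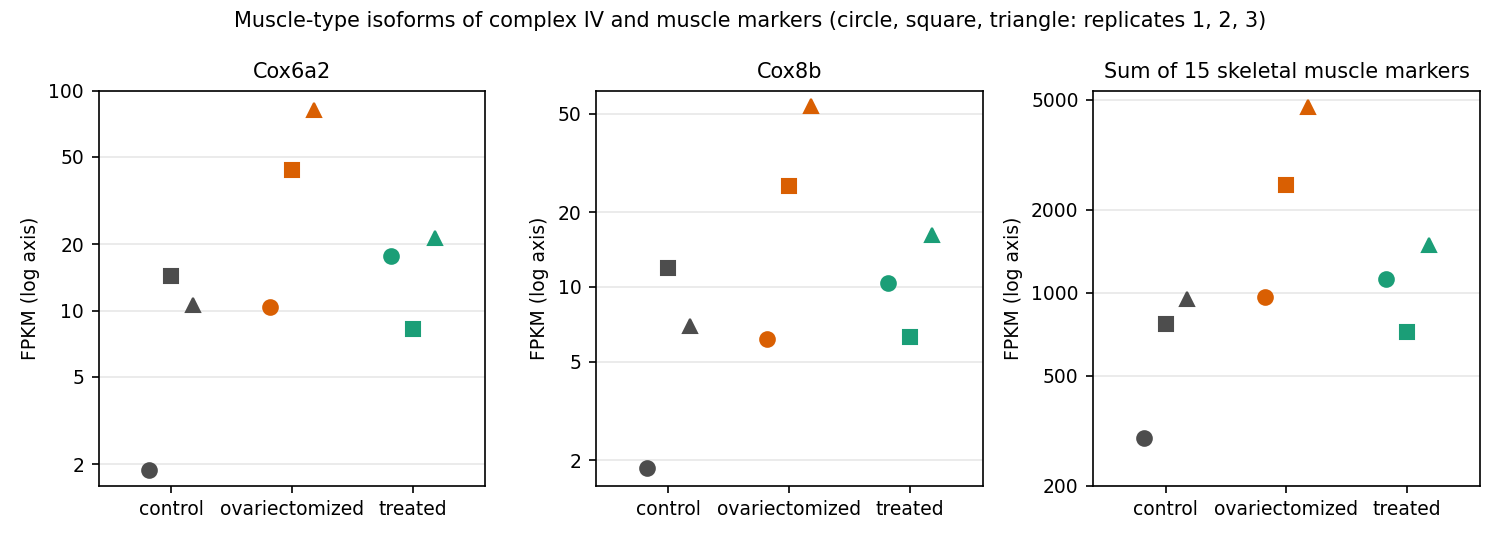
FPKM (log axes) of Cox6a2, of Cox8b and of the sum of 15 skeletal muscle markers, with 1 point per library by group. In each panel control replicate 1 is lowest (1.89, 1.86 and 296.7 FPKM) and ovariectomized replicate 3 highest (81.8, 53.9 and 4704 FPKM).

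The row of the third muscle-type isoform did not follow them. Cox7a1 had a mean of 0.238 FPKM, from 0.0949 FPKM in control replicate 1 to 0.421 FPKM in treated replicate 2, and missed the 1 FPKM floor. It held 10 to 41 counts per library, and its counts and FPKM imply a length of 1.59 kb, against 0.498 kb for Cox7b. Its place in RefSeq was not checked, so how well this row captures the isoform is not known. A second row described as similar to the heart form of the same subunit had counts in 2 libraries, at most 18. Cox4i2, the isoform of lung and other tissues, had 4.17, 2.17 and 5.05 FPKM in control, 3.64, 2.25 and 2.43 FPKM in ovariectomized and 1.48, 3.98 and 2.29 FPKM in treated libraries, at most 1.34% of Cox4i1. Cox6b2, the testis-type isoform, had 3.21, 5.37 and 2.10 FPKM, 2.56, 2.05 and 4.71 FPKM, and 3.42, 3.52 and 2.97 FPKM, at most 3.42% of Cox6b1. These 2 were the members nearest above the floor, and their groups overlapped. The testis-type Cox7b2, with Cox8c and the row Cox6c-ps1, had 0 counts in every library.

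The promoters of the muscle-type pair and of the widely made Cox8a are shown because the pair varied far more between libraries than its partners. Cox8a is the partner of Cox8b, while Cox6a1, the partner of Cox6a2, had no promoter entry. The sequences are the 250 bases before the gene start in RefSeq (GRCr8), 5′ to 3′ on the gene's strand, which is the minus strand for all 3. Cox6a2 is at chr1:192219717-192219966, Cox8b at chr1:205408274-205408523 and Cox8a at chr1:213833624-213833873. Capitals mark CAGCTG, an E-box of the kind bound by muscle-forming factors, in Cox6a2 and Cox8b, and the ETS motif CCGGAAG (here read as CTTCCGG on the opposite strand) in Cox8a.
Cox6a2: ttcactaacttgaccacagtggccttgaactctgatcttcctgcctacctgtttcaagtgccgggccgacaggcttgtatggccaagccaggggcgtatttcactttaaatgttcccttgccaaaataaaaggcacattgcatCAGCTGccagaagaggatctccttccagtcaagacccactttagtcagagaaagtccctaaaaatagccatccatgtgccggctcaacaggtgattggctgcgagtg
Cox8b: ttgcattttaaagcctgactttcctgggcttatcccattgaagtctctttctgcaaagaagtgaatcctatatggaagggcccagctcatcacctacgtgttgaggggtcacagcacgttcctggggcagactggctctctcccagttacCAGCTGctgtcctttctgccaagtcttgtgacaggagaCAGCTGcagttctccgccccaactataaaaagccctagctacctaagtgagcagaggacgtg
Cox8a: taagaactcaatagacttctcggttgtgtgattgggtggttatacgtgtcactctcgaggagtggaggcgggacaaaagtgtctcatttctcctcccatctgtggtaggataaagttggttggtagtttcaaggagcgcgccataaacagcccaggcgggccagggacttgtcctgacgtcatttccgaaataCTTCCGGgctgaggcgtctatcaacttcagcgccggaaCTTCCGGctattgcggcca
Cox6a2 held 1 CAGCTG, at bases -107 to -102 from the start, and Cox8b held 2, at -100 to -95 and -62 to -57. Cox8a held no CAGCTG and 2 ETS motifs, at -57 to -51 and -19 to -13. Only CAGCTG was searched. Other forms of the E-box, also present in the printed Cox6a2 and Cox8a bases, are not marked. A match is a description of letters and not a bound site.

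RefSeq's table had a promoter for 37 of the 45 nuclear members, and 300 bases (250 before and 50 after the start) were searched on both strands, as in all 18999 protein-coding promoters. The ETS motif CCGGAAG, bound by GABP, was in 12 of the 37 (32.4%) against 11.2% of all promoters. The NRF1 motif GCGCNTGCG, named for a factor that drives many respiratory genes, was in 11 (29.7%) against 8.07%. The YY1 motif AAGATGGCG was in 3 (8.11%) against 2.29%, and the motif of oestrogen-related receptors, TCAAGGTCA, in 2, Atp5mc3 and Sdhd (5.41% against 0.353%). The E-box CAGCTG, searched after the spread of Cox6a2 and Cox8b was known, was in 7 (18.9%) against 15.3%. Besides Cox6a2 and Cox8b these were Cox4i1, Cox7b, Atp5f1e, Atp5po and Uqcrfs1, all with a coefficient of variation under 10%. Cox4i1 held 2 ETS motifs as well, so CAGCTG was not particular to the muscle-type pair. None of the first 4 motifs lay in the windows of 16 of the 37 members. These were 4 of the 5 with a coefficient of variation above 10% (Cox6a2, Cox8b, Cox6b2 and Atp5if1, while Uqcr10 held an NRF1 motif) and 12 of the 32 below it. This split rests on the spread in these same libraries, and Cox4i2 and Atp5md, also above 10%, had no promoter entry. Short motifs can overlap, and no test was made of these shares.

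In ovariectomized against control libraries, most members were slightly higher, and none passed the threshold. The log2 fold change from edgeR's quasi-likelihood test was above 0 in 38 of 45 nuclear and 6 of 6 mitochondrial members, with medians of 0.09 and 0.14, against 6760 of 13886 genes and a median of -0.004 overall. At an adjusted p under 0.05 edgeR called 0 of 51 members (0.0% of all genes tested), DESeq2 0 (0.425%) and limma 0. At an unadjusted p under 0.05 edgeR had 4 of 51 members, all nuclear, against a background of 5.05%. The libraries of the groups did not overlap, on the TMM scale, for 8 members that were higher (background 5.02%) and 0 that were lower (background 3.92%). In deposited FPKM, which carries no such correction for library composition, 21 members (15 nuclear, 6 mitochondrial) were higher without overlap (background 7.6%) and 0 lower (background 2.05%).

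In complex II all 4 members were higher (median 0.15), and 3 did not overlap. Sdhc had 44.0, 46.5 and 54.0 FPKM in control and 54.5, 55.7 and 59.5 FPKM in ovariectomized libraries (log2 fold change 0.19, SE 0.08, edgeR adjusted p = 0.957). Sdhb had 54.1, 53.4 and 58.0 FPKM against 58.5, 66.9 and 73.2 FPKM (0.22, SE 0.09, edgeR adjusted p = 0.974). In both, every ovariectomized library lay above every control library, though the nearest pair lay within 1 FPKM. Sdhd did not overlap either, at 73.9, 73.8 and 78.5 FPKM against 78.8, 79.5 and 93.4 FPKM. The other non-overlapping members were Cox4i1, Cox6b1, Atp5po, Atp5f1c and the mitochondrial Mt-co3.

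All 9 nuclear members of complex III were higher in the ovariectomized libraries, with a median log2 fold change of 0.13, against 15 of 17 in complex V (median 0.08) and 10 of 15 in complex IV (median 0.04). The 7 nuclear members with values below 0 were Cox4i2, Cox6b2, Cox7b, Cox6a1 and Cox5a of complex IV and Atp5if1 and Atp5mf of complex V. The largest differences were those of Cox6a2 (2.28, SE 0.86, edgeR adjusted p = 0.940) and Cox8b (1.98, SE 0.84, edgeR adjusted p = 0.974), the muscle-type isoforms. Without control replicate 1 and ovariectomized replicate 3 these values were 1.07 and 0.70. All 15 skeletal muscle markers were also higher in this comparison (median 1.74, 14 at an unadjusted p under 0.05, 3 called by DESeq2), and their part in the isoforms' difference was not tested.

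The mitochondrial members lay between 0.11 (Mt-atp8) and 0.18 (Mt-cyb) in log2 fold change, each with an SE of 0.10 to 0.13. Mt-co3 had 7082, 6854 and 7317 FPKM in control and 7889, 7949 and 8942 FPKM in ovariectomized libraries (0.18, SE 0.10). On the TMM scale it was the mitochondrial member whose groups did not overlap. Mt-co1 had 7704, 7528 and 6788 FPKM against 8224, 7761 and 9137 FPKM, and Mt-cyb 2859, 3091 and 3015 FPKM against 3116, 3270 and 4094 FPKM. In each of the 3, ovariectomized replicate 3 was highest. Mt-co2, which receives electrons from cytochrome c, had 4286, 4522 and 4477 FPKM in control, 4771, 4657 and 5618 FPKM in ovariectomized and 4788, 4429 and 5388 FPKM in treated libraries. Mt-atp8 had 4502, 4978 and 4831 FPKM, 5176, 5018 and 5744 FPKM, and 4918, 4283 and 6010 FPKM in the same order. Mt-atp6 had 2157, 2226 and 2044 FPKM, 2283, 2263 and 2646 FPKM, and 2203, 1960 and 2521 FPKM. In these 3 replicate 2 was the lowest and replicate 3 the highest of the treated libraries. Ovariectomized replicate 3 was the highest of all 9 on the TMM scale for 25 of 45 nuclear and 5 of 6 mitochondrial members. Control replicate 1 was the lowest for 17 nuclear members. Over all 13886 genes tested, these libraries were the highest for 1592 and the lowest for 1928 genes. Without ovariectomized replicate 3 the medians were 0.05 for nuclear and 0.06 for mitochondrial members.

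Summed over members, mean FPKM was above control by 7.74% for nuclear and 14.3% for mitochondrial members in ovariectomized libraries, and by 4.29% and 7.85% in treated libraries. Deposited FPKM carries no correction for library composition. On the TMM scale the median differences of members from control were 6.22% (nuclear) and 9.97% (mitochondrial) in ovariectomized libraries. In treated libraries these medians were 1.35% and 1.18%, so the treated rise in summed FPKM depends on the scaling. The nuclear sum was 5546, 5957 and 5948 FPKM in control, 5901, 6347 and 6553 FPKM in ovariectomized and 5994, 6044 and 6161 FPKM in treated libraries. The mitochondrial sum was 28589, 29201 and 28472 FPKM, 31459, 30917 and 36181 FPKM, and 30500, 27840 and 34691 FPKM. The 3 ovariectomized libraries lay above the 3 controls in the mitochondrial sum, whereas the nuclear sums overlapped. The ratio of mitochondrial to nuclear sums was 4.95 ± 0.188 (SD, n = 3) in control, 5.24 ± 0.334 in ovariectomized and 5.11 ± 0.512 in treated libraries, so the group means differed by less than the spread within the ovariectomized group. Within complexes the control ratio was 4.11 ± 0.202 for complex III, 8.70 ± 0.258 for complex IV and 2.59 ± 0.0720 for complex V. These ratios compare captured poly(A) RNA per length and not protein.

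**Figure D3:**
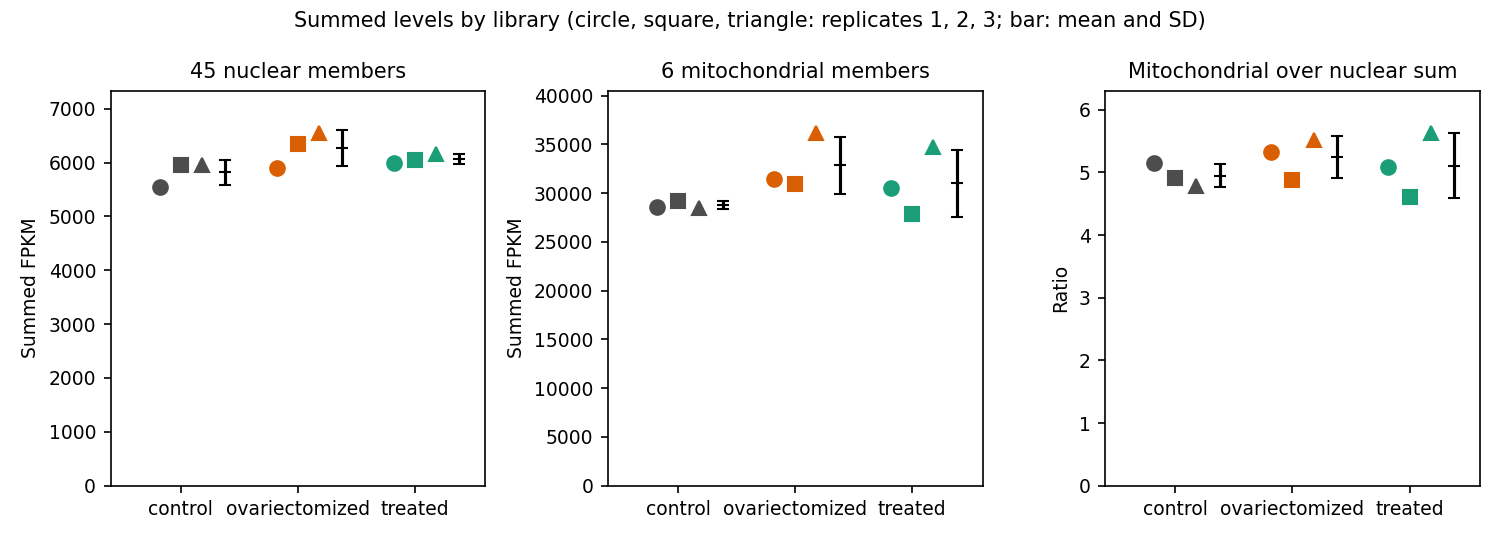
Summed FPKM of the 45 nuclear members and of the 6 mitochondrial members, and the ratio of the sums, for each library by group; bars give the mean and SD of 3 libraries and all axes start at 0. Ovariectomized replicate 3 has the highest sums (6553 and 36181 FPKM), and the ratio runs from 4.61 to 5.63, the lowest and the highest both among treated libraries. The sums carry no correction for library composition.

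In treated against ovariectomized libraries the signs were mostly reversed, and again none passed the threshold. Both comparisons use the same ovariectomized libraries, so a library that is high in that group raises the first difference and lowers the second. The log2 fold change was below 0 in 40 of 45 nuclear and 6 of 6 mitochondrial members, with medians of -0.08 and -0.12, against 7087 of 13886 genes and -0.004 overall. At an adjusted p under 0.05 edgeR called 0 of 51 members (0.0% of all genes), DESeq2 0 (0.274%) and limma 0. At an unadjusted p under 0.05 edgeR had 0 members (background 5.2%). The groups did not overlap for 8 members that were lower (background 6.63%) and 0 that were higher (background 5.75%). In FPKM this held for 1 lower member, Uqcrc1 (background 3.93%), and 0 higher members (background 10%).

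The 8 non-overlapping members were Uqcrc1 and Uqcrb of complex III, Cox6a1 of complex IV, and Atp5f1a, Atp5f1c, Atp5mc1, Atp5pd and Atp5po of complex V. Uqcrb here is the chromosome 1 row, which shares neighbours with a RefSeq pseudogene. The Uqcrb row of chromosome 7 overlapped in FPKM, with 25.3, 24.2 and 23.3 FPKM in ovariectomized and 21.2, 23.0 and 31.1 FPKM in treated libraries. Uqcrc1, a core protein, had 86.0, 88.9 and 95.8 FPKM in ovariectomized and 85.2, 82.8 and 85.6 FPKM in treated libraries (-0.13, SE 0.07, edgeR adjusted p = 0.929). The separation between the groups was small beside the range within the ovariectomized group. Atp5f1c, the rotor's gamma subunit, had 19.6, 19.1 and 21.0 FPKM against 18.5, 19.4 and 19.3 FPKM, which overlapped in FPKM but not on the TMM scale (-0.10, SE 0.05, edgeR adjusted p = 0.929). Atp5mc3, a c subunit gene, had 109.8, 121.4 and 131.9 FPKM against 106.0, 113.0 and 118.1 FPKM, which overlapped (-0.15, SE 0.08).

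The smallest p among members in this comparison was that of the Atp5md row, with 10.9, 17.6 and 12.5 FPKM in ovariectomized and 11.4, 9.39 and 10.2 FPKM in treated libraries (-0.44, SE 0.22, edgeR adjusted p = 0.929). Ovariectomized replicate 2 alone was high, and this is a row whose neighbours are those of a RefSeq pseudogene. Cox6a2 (-1.55, SE 0.84) and Cox8b (-1.41, SE 0.83) again had the largest differences, and without control replicate 1 and ovariectomized replicate 3 these were -0.81 and -0.57. The 15 muscle markers were all lower here as well (median -1.21, 4 at an unadjusted p under 0.05), and their part was not tested. Mitochondrial members lay between -0.15 (Mt-atp6 and Mt-co3) and -0.08 (Mt-co2). On the TMM scale treated replicate 2 was the lowest of all libraries for 5 of the 6 mitochondrial members, against 1140 of 13886 genes tested. In FPKM it was the lowest for Mt-atp8 and Mt-atp6. Without that library the median of the mitochondrial members was -0.05. Mt-cyb had 0.01 without ovariectomized replicate 3, which reversed its sign.

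In treated against control libraries members lay on both sides of 0. The log2 fold change was above 0 in 26 of 45 nuclear and 4 of 6 mitochondrial members, with medians of 0.02 each, against 6943 of 13886 genes and a median of 0.00 overall. Scaling by total count alone, without TMM factors, gave medians of 0.11 for both sets, so the size of the medians depends on the scaling. The median of all genes under that scaling was not computed, so the 0.11 does not set members against other genes. At an adjusted p under 0.05 edgeR called 0 of 51 members (0.0% of all genes), DESeq2 0 (1.1%) and limma 0. At an unadjusted p under 0.05 edgeR had 2 members, against a background of 8.81%. The groups did not overlap for 2 members that were higher (background 6.34%) and 2 that were lower (background 6.78%); both shares lay below the background. In FPKM there were 11 higher members, all nuclear (background 14.3%), and 1 lower, Atp5if1 (background 2.66%).

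The 2 lower members were Atp5if1 and Cox6a1. Atp5if1, the ATP synthase inhibitor, had 344.4, 411.3 and 334.4 FPKM in control, 320.2, 375.9 and 313.0 FPKM in ovariectomized and 296.1, 322.0 and 304.4 FPKM in treated libraries (treated against control -0.33, SE 0.12, edgeR adjusted p = 0.512). All treated libraries were below all controls, control replicate 2 stood highest, and without that library the difference was -0.21. Atp5if1 is known for its role in haem synthesis in red cell precursors, and control replicate 2 also had the highest haemoglobin share, 16.2% of counts against 6.89% to 10.6% elsewhere. All 11 erythroid markers were lower in treated than control libraries (median -0.48, 10 at an unadjusted p under 0.05, 2 called by DESeq2), with sums of 2873 to 4531 FPKM in control and 2473 to 3115 FPKM in treated libraries. Their part in the value of Atp5if1 was not tested.

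Cox6a1, the widely made isoform paired with Cox6a2, had 295.8, 338.0 and 324.9 FPKM in control and 296.2, 304.2 and 292.8 FPKM in treated libraries (-0.19, SE 0.08, edgeR adjusted p = 0.530), which overlapped in FPKM but not on the TMM scale. The 2 higher members were the Rieske protein Uqcrfs1, with 73.0, 81.9 and 85.6 FPKM against 89.0, 96.3 and 93.5 FPKM, and Sdhd, with 84.6, 81.6 and 84.1 FPKM in treated libraries. Sdhc (0.13, SE 0.08), Cox7b (-0.14, SE 0.09) and Cox4i2 (-0.63, SE 0.41) completed the members of smallest p. Mitochondrial members lay between -0.03 (Mt-atp6) and 0.07 (Mt-cyb). The signs of Mt-atp6 and Mt-atp8 turned to positive under total-count scaling, so no direction is given for them.

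**Figure D4:**
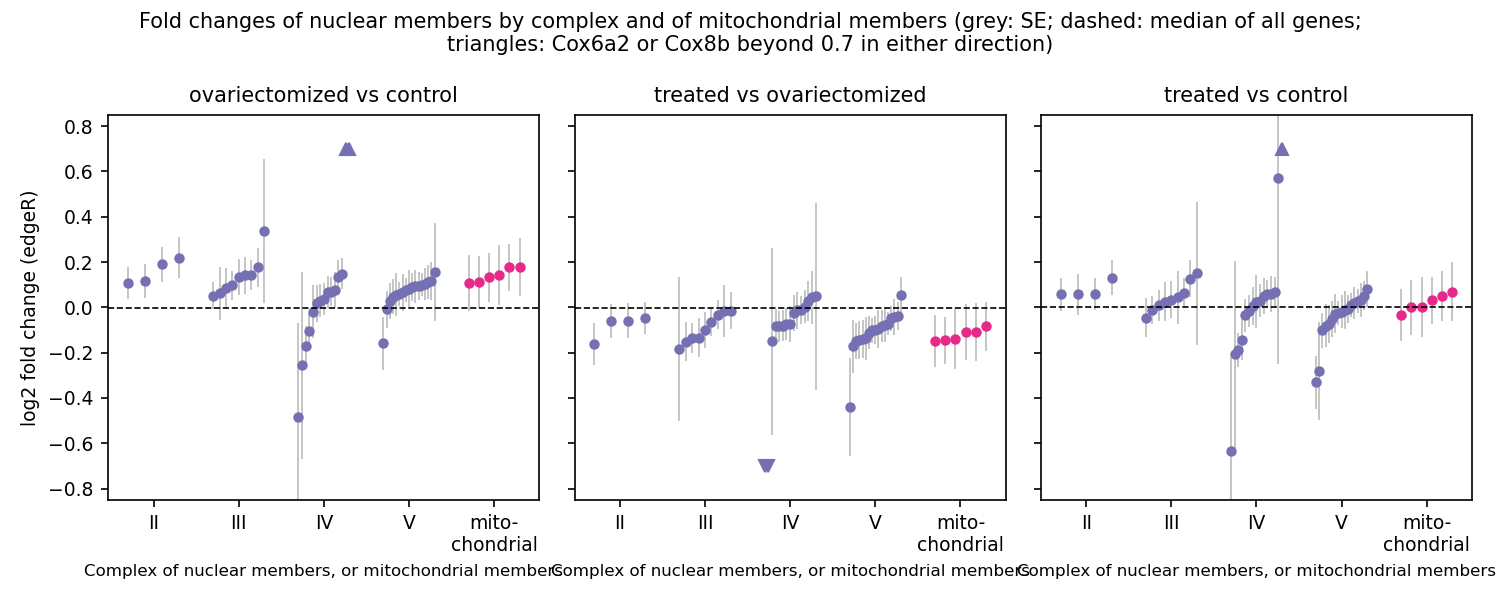
edgeR log2 fold changes of the 51 members in the 3 comparisons, nuclear members by complex and mitochondrial members apart, with SE as grey bars and the median of all genes as a dashed line; triangles mark Cox6a2 or Cox8b beyond 0.7. Most points lie above the line for ovariectomized against control libraries (medians 0.09 and 0.14), below it for treated against ovariectomized (-0.08 and -0.12) and on both sides for treated against control.

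Partner genes outside complexes II to V were read from the same fit. Of 34 nuclear complex I subunits, 33 were higher in ovariectomized than control libraries (median 0.10), 29 were lower in treated than ovariectomized (median -0.10) and 23 were higher in treated than control libraries (median 0.03). The 7 mitochondrially encoded complex I subunits had medians of 0.26, -0.13 and 0.12 in the same order, against 0.14, -0.12 and 0.02 for the 6 mitochondrial members. Among them Mt-nd3 had 775.5, 643.7 and 780.3 FPKM in control, 892.6, 1008 and 1175 FPKM in ovariectomized and 1003, 1035 and 1249 FPKM in treated libraries, so both other groups lay above the controls (treated against control 0.49, SE 0.12, DESeq2 adjusted p = 0.0237, edgeR adjusted p = 0.469). For Mt-nd1 and Mt-nd5 the ovariectomized-control differences were 0.23 (SE 0.10) and 0.33 (SE 0.13).

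Of 36 assembly factors of complexes II to V, 23 were higher in ovariectomized than control libraries (median 0.09), 24 lower in treated than ovariectomized (median -0.05) and 18 higher in treated than control libraries (median 0.01), and edgeR and DESeq2 called none. Tmem242, an ATP synthase assembly factor, was among those of smallest p, with a difference between treated and control libraries of 0.36 (SE 0.11, edgeR adjusted p = 0.473). Of 18 genes that maintain and transcribe mitochondrial DNA, 8, 5 and 7 had values above 0 (medians -0.01, -0.10 and -0.04). Of 21 other carriers and partners of the chain, 16, 8 and 13 did (medians 0.08, -0.05 and 0.04). Coq8a, a kinase-like protein of ubiquinone synthesis, had the largest of these values in ovariectomized against control libraries (1.19, SE 0.35), with 48.5 FPKM in ovariectomized replicate 3 against 11.0 to 23.1 FPKM elsewhere.

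Regulators of respiratory genes did not share 1 direction. Of 9 tested, 4 were higher in ovariectomized than control libraries (median -0.003), 3 in treated than ovariectomized (median -0.02) and 3 in treated than control libraries (median -0.05). Esrra, the oestrogen-related receptor alpha, an orphan receptor that drives mitochondrial genes, had 11.3, 10.1 and 12.4 FPKM in control, 13.7, 14.9 and 13.6 FPKM in ovariectomized and 15.7, 14.6 and 14.9 FPKM in treated libraries. The other groups lay above all controls, and for treated against control libraries the difference was 0.34 (SE 0.08, DESeq2 adjusted p = 0.0335, edgeR adjusted p = 0.469). Pprc1, a coactivator of the same family as PGC-1, differed by -0.22 (SE 0.08) and -0.23 (SE 0.08) from control in ovariectomized and treated libraries. Ppargc1a, the coactivator PGC-1 alpha itself, had a mean of 0.252 FPKM and was below the floor.

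Markers of other cell types were read from the same fit. White adipocyte markers, 12 tested, were all higher in ovariectomized than control (median 1.10) and in treated than control libraries (median 1.08), 8 and 9 of them at an unadjusted p under 0.05 and 2 called by DESeq2 in each, with summed levels of 429.8 to 953.5 FPKM in control, 1104 to 1618 FPKM in ovariectomized and 1158 to 1928 FPKM in treated libraries. The haemoglobin share was 10.6% to 16.2%, 8.41% to 10.1% and 6.89% to 8.82% of counts in the same order. In treated against ovariectomized libraries 6 of 12 adipocyte markers were higher (median 0.02). The 11 osteoblast and osteocyte markers were all lower than control in both other groups (medians -0.38 and -0.61), and 10 were lower in treated than ovariectomized libraries (median -0.27). The 9 neutrophil granule markers were all higher in treated libraries than in the other groups (medians 0.32 and 0.35), with 0.01 for ovariectomized against control, and the 6 osteoclast markers had medians of -0.22, 0.05 and -0.19. The part of muscle, fat, bone and blood cells in the levels of nuclear and mitochondrial members was not tested. With Cox6a2 and Cox8b left out, the nuclear medians were 0.08, -0.08 and 0.01 in the 3 comparisons.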

How the data were processed

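Poly(A) RNA of 9 rat femur libraries, 3 each from control, ovariectomized and treated rats by the labels' titles, was described from 1 table of 32623 rows. The authors deposited a read count and an FPKM value per gene and library, per the file headers. The submitters' processing notes name fastp, HISAT2 and StringTie without versions. The genome build and the counting step were not given in the sources used here. A count of 0 carries a deposited FPKM of 0.0001. Libraries held 54992823 to 66531156 counts.

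The 13886 rows with a mean of 1 FPKM or more were tested with edgeR's quasi-likelihood test on the counts (TMM factors, 1 fit over 9 libraries, Benjamini-Hochberg adjustment over all of them, threshold 0.05). DESeq2 and limma on log2(FPKM + 1) were alternatives, with others named in the closing section. Levels are FPKM, and differences are edgeR log2 fold changes with SE. Groups were called not overlapping on TMM-scaled counts (CPM). With 3 libraries a group, no test was made of sums, ratios or lists. The fit was also run on simulated data with 13886 genes, in which noise was independent between genes. Over the 3 comparisons 49% to 54% of genes changed 2-fold and 85% to 87% of those changed 4-fold were recovered, with 6 to 8 false calls. Changes below 2-fold, the size of nearly all member differences, were not simulated, so this recovery does not cover them. Differences in tissue mix between libraries were not simulated either. In the data edgeR called 0 of the 15 skeletal muscle markers in ovariectomized against control libraries, at a median log2 fold change of 1.74. The recovery therefore need not hold for genes that vary between libraries as these did.

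Members and lists were chosen with earlier results of these data known. Named genes were the mitochondrial members, the 6 members of smallest p in each comparison, the highest nuclear member of each complex, the complex IV isoform pairs, the c subunit genes, Atp5if1, the Sdh genes, members next to the floor and up to 3 genes of smallest p from each other list, of which those bearing on the members are printed; other genes named for their level, spread or lack of overlap were chosen after their values were seen. Promoters and the checks of row names came from RefSeq (GRCr8). Replicate numbers were not used as pairs. Software was edgeR 4.0.16, DESeq2 1.42.0 and limma 3.58.1 under R 4.3.3, with Python 3.11.15 and matplotlib 3.10.9 for tables and figures.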

Additional observations from a re-analysis of the deposited data

How the results depend on the processing

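No member was called by edgeR, DESeq2 or limma under any setting run. The number of all genes called moved from 0 to 59, 38 and 153 with DESeq2 (ovariectomized against control, treated against ovariectomized, treated against control), to 2, 1 and 1 with only the groups compared in the fit, and to 4 and 2 in the first and last comparison without both control 1 and ovariectomized 3, an alternative chosen after seeing the data. With each library left out in turn the counts ranged from 0 to 4, 0 to 2 and 0 to 3; leaving out control 1, control 2, ovariectomized 1 or treated 2 gave counts above 0. Medians of nuclear and mitochondrial members stayed within 1 within-group SD (0.0917 and 0.121) of the reported values. This SD is that of each library's mean log2 CPM over the set, pooled over the groups, and not of its median. The nuclear mean includes the widely varying Cox6a2 and Cox8b, which widen it. In all, 271 of 288 alternative values of the counts, medians and ratios kept their call or moved by less than that spread. That spread is close to or above the size of the medians themselves. The mitochondrial median of 0.137 in ovariectomized against control libraries counted as kept at 0.0587 without ovariectomized replicate 3. With 0 members called throughout as well, the tally does not show that the medians are stable.

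Reversed signs were all of small values. In treated against ovariectomized libraries Mt-co2 was 0.0028 and Mt-cyb 0.0174 without both control 1 and ovariectomized 3, and Mt-cyb ranged from -0.18 to 0.0104 with single libraries left out. In treated against control libraries Mt-atp6 was 0.0499 with limma at a pseudocount of 1 or 0.1 and 0.0584 by total count. Mt-atp8 was 0.000709 with DESeq2, 0.0753 with limma at either pseudocount, 0.000707 with median-of-ratios factors, 0.0899 by total count, 0.00155 with a floor of 5 FPKM and 0.000377 with only the groups compared. With single libraries left out, Mt-atp6 ranged from -0.118 to 0.0529, Mt-atp8 from -0.127 to 0.109, Mt-co1 from -0.078 to 0.0656, Mt-co2 from -0.0174 to 0.114 and Mt-co3 from -0.0283 to 0.0910. The causes were not tested.

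Same-numbered libraries deviated together little (correlations from -0.132 to 0.184), so the numbers were not taken as pairs. With the replicate number as a block, 0 genes and 0 members were called, the medians were 0.0858 and 0.133, -0.0806 and -0.127, and 0.0191 and 0.0133, and Mt-co1 in treated against control libraries was -0.000659. The lowest row total of a member was 909 counts over 9 libraries (Cox6b2).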
